A study of Mus musculus with 4 samples.

Results

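The genes of the proteasome, the protease complex that degrades ubiquitin-tagged proteins, were read across 4 populations of cultured mouse CD4 T cells. Members were all genes whose only platform symbol begins with Psma, Psmb, Psmc, Psmd or Psme followed by a digit. This gave 44 of the 18193 genes with a single-gene probe set, through 91 of 34945 such probe sets. Each gene was represented by its probe set with the highest mean log2 signal. Of the members, 42 lay above the floor on at least 1 array, the floor being the median signal of all probe sets (12.1). The 2 below it on every array were Psma8, an alpha subunit of the testis (signals of 0.7 to 4.4), and Psmb11, the catalytic subunit of the thymic epithelium (0.7 to 3.8). The name rule also took in Psmc3ip, a recombination factor, and Psme3ip1, a partner of Psme3; neither is a subunit, and both are kept apart below. Psme2 has no probe set of its own here, so 4 of the 5 immunoproteasome genes set beside the rest were measured.

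Total RNA was taken from 4 sorted populations grown from spleen and lymph node cells of C57BL/6 mice aged 8 to 10 weeks. Th0 cells came from naive CD4 T cells under Th0 conditions and were sorted as negative for IL-17, read by GFP, and for Foxp3, read by APC. Th17 cells came from naive cells under Th17 conditions and were sorted as IL-17 positive and Foxp3 negative. The exFoxp3Th17 cells started as Foxp3+ CD4 T cells, were also kept under Th17 conditions, and passed the same IL-17 positive, Foxp3 negative gate. Treg cells started as Foxp3+ CD4 T cells, were cultured with IL-2, and were sorted as Foxp3 positive and IL-17 negative. Culture conditions, precursor and gate therefore change together in several comparisons. Each population has 1 array, so no spread between samples exists and no test was possible: each difference reported compares 1 array with 1 other. How many animals stand behind each array is not stated. Where 4 signals follow each other without names below, they are those of Treg, Th0, Th17 and exFoxp3Th17, in that order.

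The proteasome core is a barrel of stacked rings: the alpha subunits (Psma genes) form the outer gates, and the beta subunits (Psmb genes) form the inner rings that hold the proteolytic sites. The regulatory particle that caps the barrel has a base of ATPases (Psmc genes), which unfold substrates, and non-ATPase subunits (Psmd genes), which bind and strip ubiquitin. Interferon gamma is known to induce 3 alternative catalytic subunits, Psmb8, Psmb9 and Psmb10, which replace Psmb5, Psmb6 and Psmb7 in the immunoproteasome. It also induces the PA28 activator made of Psme1 and Psme2. Lymphocytes are known to carry immunoproteasomes without added interferon, and the changed cleavage favours peptides for MHC class I.

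The arrays were first read against their labels. Foxp3 was read at 584.9 in Treg and at 4.3 to 8.0, under the floor, on the others, whereas Il17a lay below the floor on all 4 (7.1 to 9.8) and did not separate the IL-17 gates. Of 3 other Th17 markers measured, 2 did. Il21 read 491.0 in Th17 and 339.1 in exFoxp3Th17 against 1.5 and 1.7 in the others. Ccr6 read 328.5 and 1522 against at most 54.5. The third was also high in the IL-17 negative Treg array, at 1351, against 3072 in Th17 and 2219 in exFoxp3Th17. Of 5 Treg markers measured, Foxp3 alone was confined to the Treg array. The other 4 were above the floor in every population, though highest in Treg. Il2ra read 2878 in Treg and 2178 in Th17, and Ctla4 read 2789 and 1943. Both were at least 2-fold higher in Th17 than in Th0. In Treg against Th0 all 5 markers were higher by that much. All 7 measured CD4 T cell markers were above the floor on each array. Of 5 B cell markers, 0 to 2 were above the floor on an array, with a summed signal of 23.1 to 75.7, and of 9 myeloid markers 1 to 3, with a sum of 39.8 to 101.8. The NK cell and erythroid markers were under it on every array, and of 2 CD8 T cell markers 1 or 2 were above it, with a sum of 66.01 to 97.01, highest in Th17. The thymic epithelial gene Foxn1 was below the floor throughout (1.1 to 10.5). Xist was at 3766 in exFoxp3Th17 and at 7.4 to 10.8 elsewhere, while Y-linked Eif2s3y was at 4.7 there and at 654.5 to 875.8 elsewhere. Every comparison with the exFoxp3Th17 array also crosses this difference, whose part in the results was not tested. The 3′ control probe set of Gapdh read 0.91 to 1.06 times its 5′ one, and that of actin 1.12 to 1.31 times.

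Promoter sequence was set beside the genes because the immunoproteasome genes were all highest in 1 population. Of the 44 members, 37 were in the RefSeq promoter table (GRCm38.p6; 250 bases before to 50 after each gene's start). Psma8, Psmb1, Psmb2, Psmb7, Psmc3, Psmd3 and Psmd7 were not. On either strand, 4 letter patterns were searched: the interferon-stimulated response element (GAAA, any 2 bases, GAAA), the gamma-activated site TTCNNNGAA, the antioxidant response element TGACNNNGC and the NF-Y box CCAAT. The stretches below belong to the immunoproteasome genes Psmb9, Psmb8 and Psme1 and to the standard genes Psmb5 and Psmb6. Psmb10, whose window held no match, and Psme3 are not shown. The stretches are written 5′ to 3′ on the strand of each gene, with every match to any of the 4 patterns in capitals. The first is the whole gap between the starts of Psmb9 and Tap1, genes that are read away from each other on chromosome 17 (chr17:34187331-34187555, minus strand); its capitals are an NF-Y box on the opposite strand. The second is the 150 bases before Psmb8 (chr17:34198045-34198194, plus strand), with a gamma-activated site. The third runs from 80 bases before the start of Psme1 to 20 bases after it (chr14:55578414-55578513, plus strand) and holds an interferon-stimulated response element on the opposite strand. The last are the 80 bases before Psmb5 (chr14:54617996-54618075, minus strand) and before Psmb6 (chr11:70525277-70525356, plus strand), the standard counterparts of Psmb8 and Psmb9. Each of these holds an antioxidant response element.
Psmb9: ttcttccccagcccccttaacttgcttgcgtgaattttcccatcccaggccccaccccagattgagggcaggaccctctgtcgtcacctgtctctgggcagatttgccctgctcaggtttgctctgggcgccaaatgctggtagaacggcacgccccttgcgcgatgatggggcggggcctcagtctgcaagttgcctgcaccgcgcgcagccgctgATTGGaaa
Psmb8: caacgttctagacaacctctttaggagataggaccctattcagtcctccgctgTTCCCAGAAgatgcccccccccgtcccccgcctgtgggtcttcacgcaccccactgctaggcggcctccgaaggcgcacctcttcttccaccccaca
Psme1: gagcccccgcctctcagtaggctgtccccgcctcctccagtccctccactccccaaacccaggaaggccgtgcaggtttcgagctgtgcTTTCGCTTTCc
Psmb5: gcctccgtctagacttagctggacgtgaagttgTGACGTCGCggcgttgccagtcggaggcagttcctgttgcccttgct
Psmb6: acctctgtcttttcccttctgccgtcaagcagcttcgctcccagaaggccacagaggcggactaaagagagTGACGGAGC

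Over the 37 members the interferon-stimulated response element was found in 4 (10.8%; Psme1, Psmb3, Psmd4 and Psmd9), against 3.99% of the 27025 genes in the table. The gamma-activated site was found in 2 (5.41%, against 9.55%), Psmb8 and Psmd2. The antioxidant response element was found in 6 (16.2%, against 14%), which were Psmb5, Psmb6, Psmc6, Psmd9, Psmd12 and Psme4. The NF-Y box was found in 16 (43.2%, against 41.1%). The window of Psmb10 held no match. A match is a run of letters in this window and describes no binding.

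Across the 4 arrays the members shared an order: most were highest in Treg and lowest in exFoxp3Th17. Of the 42 genes above the floor, 27 had their highest signal in Treg and 30 their lowest in exFoxp3Th17 (26 and 25 after quantile normalization, 31 and 29 with equal medians). Among the 5844 genes of the series at least as bright as the dimmest of these 42, 20.8% were highest in Treg and 30.7% lowest in exFoxp3Th17. Differences were small, with a fold between the highest and the lowest array of 1.14 for Psmd5 and 1.15 for Psmb1 at one end, and of 2.62 for Psmb10 and 3.05 for Psmc3ip at the other. The arrays measure RNA from many cells, scaled to a common level, so fewer expressing cells and less RNA per cell cannot be told apart.

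**Figure D1:**
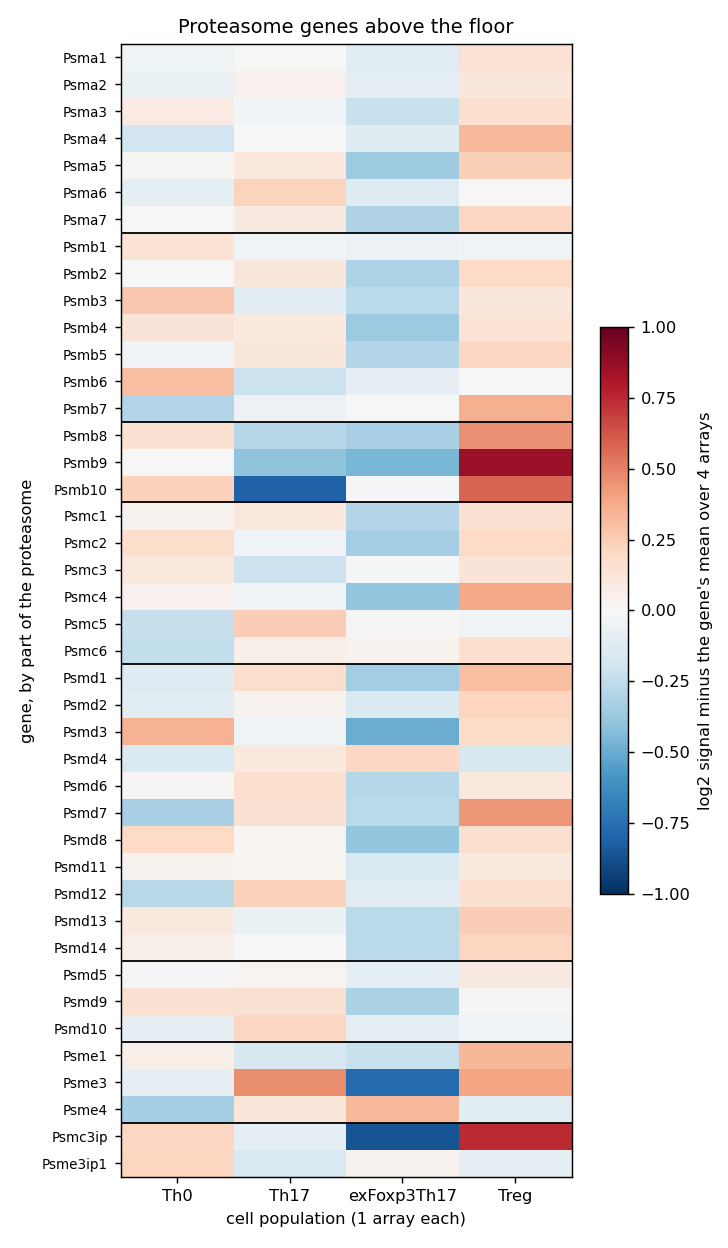
Log2 signal of the 42 proteasome genes above the floor (rows, grouped by part of the complex) on the 4 arrays (columns), each shown relative to the gene's own mean over the arrays. The exFoxp3Th17 column is the lowest for 30 genes and the Treg column the highest for 27; black lines separate the alpha ring, the standard beta ring, the immunoproteasome subunits, the base ATPases, the non-ATPase subunits, the assembly chaperones, the activators and the 2 genes that are no subunit.

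The largest shift was between exFoxp3Th17 and Treg, which share Foxp3+ precursors and differ in culture and gate. In exFoxp3Th17, 38 of 42 members were lower (90.5%, against 43.8% of all 11769 genes above the floor) and the median log2 ratio was -0.41, against 0.02 over all genes. The shift was narrow: the middle 50% of members spanned 0.36 log2 units, against 0.91 for all genes. At 2-fold or more, 3 members were lower (Psmc3ip, Psmb9 and Psme3), where 9.94% of all genes were, and 0 were higher, where 11.3% were. At 1.5-fold or more, 10 were lower, where 18.3% of all genes were, and 0 higher, where 22.5% were. The count of lower genes at either fold was thus near the background, and what set the members apart in description was their common direction. All 20 measured cell cycle genes were also at least 2-fold lower in exFoxp3Th17 (median -1.94), and their part in the shift was not tested. With equal medians of probe sets above the floor on each array, 21 rather than 10 members were lower by 1.5-fold or more, and with the second brightest probe set the median was -0.27.

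Against Th17, a population of the same culture and gate but of naive origin, exFoxp3Th17 again had most members lower. Of 42 members, 35 were lower (83.3%, against 40.6% of all genes), with a median log2 ratio of -0.22 against 0.03 for all genes. At 2-fold or more 1 was lower, Psme3, where 7.27% of all genes were, and 0 were higher, where 7.48% were. At 1.5-fold or more 2 were lower, where 14.8% of all genes were, and 1 was higher, where 18.1% were. The last was Psmb10. Psme3 passed 2-fold by its brightest probe set only, and with the second brightest probe set or the mean of probe sets 0 members did. This comparison and the one with Treg share the exFoxp3Th17 array.

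Th17 cells set against Th0 cells, both of naive origin, showed no common direction. Of 42 members 23 were higher and 19 lower (45.2%, against 51.5% of all genes). The median log2 ratio was 0.04. It became -0.031 when a gene's probe sets were averaged and 0.18 with equal medians, where 28 were higher and 14 lower. Psmb10 alone passed 2-fold, downward, where 6.88% of all genes did, and 0 passed it upward, where 8.22% did. Psmb10 was also the only member past 1.5-fold (17.2% of all genes were lower by this much, and 15.4% higher). Under equal medians of probe sets above the floor its log2 ratio of -1.04 became -0.90, short of 2-fold.

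In Treg set against Th0, which differ in precursor, culture and Foxp3 gate, most members were higher by small amounts. Here 34 of 42 had a higher signal in Treg (81.0%, against 44.0% of all genes) and the median log2 ratio was 0.18, against -0.01. At 2-fold or more 0 were higher, where 5.56% of all genes were, and 0 lower, where 4.95% were. At 1.5-fold or more 3 were higher, where 12% of all genes were, and 0 lower, where 13.3% were. These 3 were Psmb9 (1.82-fold), Psmd7 (1.70-fold) and Psmb7 (1.57-fold).

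**Figure D2:**
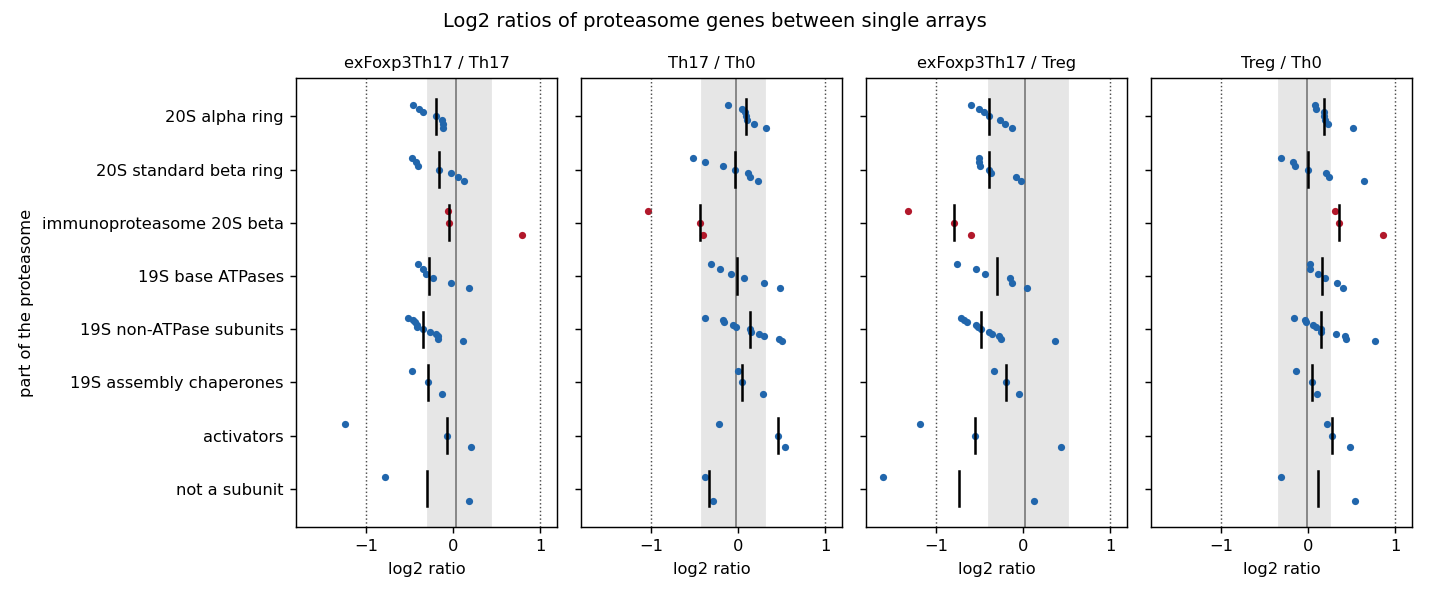
Log2 ratio (horizontal axis) of each proteasome gene above the floor in the 4 comparisons of single arrays (panels), by part of the complex (vertical axis); dots are genes, with the immunoproteasome subunits in red, and short black bars are medians. The grey band spans the middle 50% of all 11769 genes, the grey line is their median and dotted lines mark 2-fold; the dots lie mostly left of the grey line for exFoxp3Th17 against Th17 or Treg and mostly right of it for Treg against Th0.

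The alpha ring, the entry gate of the barrel, had 1 direction in 3 of the 4 comparisons under each of the 3 scalings, and with equal medians in Th17 against Th0 too. All 7 genes were lower in exFoxp3Th17 than in Treg, by log2 ratios from -0.59 to -0.13, and all 7 were lower than in Th17, from -0.46 to -0.12. They were also all higher in Treg than in Th0 (0.08 to 0.51). Psma5 had signals of 2100 in Treg, 1798 in Th0, 1916 in Th17 and 1391 in exFoxp3Th17, and its 1.51-fold difference between exFoxp3Th17 and Treg was the largest of the ring. Psma4 read 2233, 1566, 1778 and 1642, so that Treg stood above the other 3. Psma2 was nearly level, at 2696, 2379, 2561 and 2341.

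Among the 7 standard beta genes, the direction was shared in only 1 comparison: all were lower in exFoxp3Th17 than in Treg, from -0.51 to -0.02 (6 of 7 after quantile normalization). Psmb4, a structural subunit, read 2519 in Treg, 2515 in Th0, 2460 in Th17 and 1782 in exFoxp3Th17. Its other probe set, however, gave 2405, 2277, 2179 and 2096, a smaller difference. Psmb5, which carries the chymotrypsin-like activity, had signals of 1438, 1220, 1343 and 1015. Psmb6, the caspase-like subunit, was highest in Th0 at 999.9, with 701.1 in Th17, 765.3 in exFoxp3Th17 and 808.5 in Treg. Psmb7, the trypsin-like subunit, instead read lowest in Th0 (212.7), with 249.2 in Th17, 258.6 in exFoxp3Th17 and 333.0 in Treg. Psmb1 spanned only 1994 to 2284.

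The immunoproteasome genes were all highest in Treg, under each of the 3 scalings. Psmb8, the inducible counterpart of Psmb5, had signals of 2765 in Treg, 2233 in Th0, 1655 in Th17 and 1603 in exFoxp3Th17. The IL-17 positive populations were the 2 low ones and were nearly equal. In exFoxp3Th17 it was 1.73-fold lower than in Treg. Its dimmer probe set read 202.7, 130.2, 88.7 and 65.7, the same order with a log2 ratio of -1.63 between those arrays.

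Psmb9, the inducible counterpart of Psmb6, read 1746 in Treg, 961.2 in Th0, 726.0 in Th17 and 700.2 in exFoxp3Th17. Treg stood apart: it was 1.82-fold above Th0, and exFoxp3Th17 was 2.49-fold below it. This was the largest difference of any true subunit gene in any of the 4 comparisons, and, with 1 probe set for the gene, it stayed past 2-fold under the other scalings (log2 ratios of -1.32 as given, -1.26 after quantile normalization and -1.47 with equal medians). Between exFoxp3Th17 and Th17 the log2 ratio was -0.05.

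Psmb10, the inducible counterpart of Psmb7, was the exception among the Th17 populations. It had signals of 863.3 in Treg, 675.9 in Th0, 329.5 in Th17 and 571.0 in exFoxp3Th17. Th17 alone was low, 2.05-fold below Th0 and 1.73-fold below exFoxp3Th17. Psmb10 has 1 probe set, so its low Th17 value could not be checked against another. Psme1, a subunit of the PA28 activator, followed Psmb8, at 1857, 1535, 1323 and 1264.

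As a group, the 4 genes had a median log2 ratio of -0.69 for exFoxp3Th17 against Treg, and the other 38 members one of -0.39. For Treg against Th0 these were 0.33 and 0.15. For Th17 against Th0 they were -0.42 and 0.08, with all 4 immunoproteasome genes lower and 23 of the other 38 members higher. For exFoxp3Th17 against Th17 the order turned, at -0.05 (0.0072 after quantile normalization) and -0.28. The difference between the medians kept its sign in each comparison under all alternatives tried. Some of these could not have changed it, as equal medians shift both medians alike and the members lie above each floor tried. Among the 4 genes, the choice of probe set can change only Psmb8, since Psmb9, Psmb10 and Psme1 have 1 probe set each. The difference ranged from -0.71 to -0.30, from 0.18 to 0.35, from -0.55 to -0.47 and from 0.16 to 0.26 in the order given. With 4 genes these are descriptions, and no test of the difference was possible.

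The pairs of subunits that can replace each other changed unequally. For Psmb9 with Psmb6, the log2 ratio of exFoxp3Th17 to Treg was -1.32 for the inducible and -0.08 for the standard gene, a difference of -1.24. For Treg against Th0 this pair differed by 1.17. For Psmb10 with Psmb7 the largest difference was in Th17 against Th0, where the inducible gene was at -1.04 and the standard gene at 0.23 (a difference of -1.26). For Psmb8 with Psmb5 the differences were smaller, from -0.57 in Th17 against Th0 to 0.36 in exFoxp3Th17 against Th17. Such a difference shows unequal change of 2 probe sets, not the share of either subunit in assembled proteasomes.

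**Figure D3:**
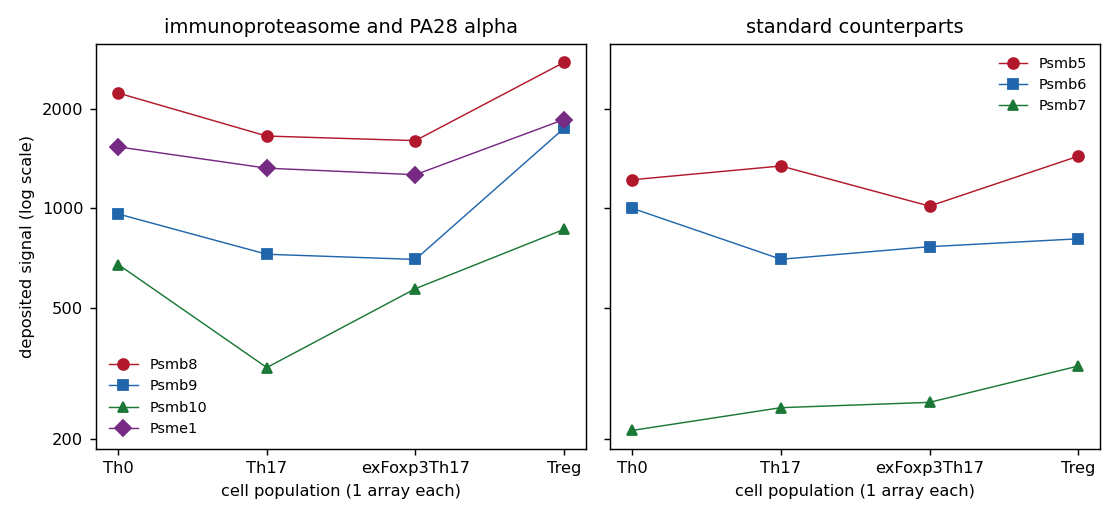
Deposited signal (vertical axis, log scale) of the immunoproteasome genes with Psme1 (left) and of the standard catalytic counterparts (right) in each population (horizontal axis, 1 array each); lines only join the points of 1 gene and levels of different genes are not comparable. All 4 genes on the left are highest in Treg, Psmb9 at 1746, and Psmb10 is lowest in Th17, at 329.5, while on the right Psmb6 is highest in Th0.

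The base ATPases differed in degree. Of 6 genes, 5 were lower in exFoxp3Th17 than in Treg and all 6 were higher in Treg than in Th0 (5 after quantile normalization). Psmc4 had signals of 1996 in Treg, 1585 in Th0, 1496 in Th17 and 1178 in exFoxp3Th17, a 1.70-fold difference between Treg and exFoxp3Th17. Its second probe set read 503.0, 422.4, 573.6 and 426.7, with a log2 ratio of only -0.24 there. Psmc5 was the only one of the 6 that was highest in Th17, at 643.1. It was lowest in Th0 at 461.5, with 547.6 in exFoxp3Th17 and 530.4 in Treg. Psmc6 was also lowest in Th0 (1178) but highest in Treg (1557). Psmc3 was the only one of the 6 that was higher in exFoxp3Th17 (1226) than in Th17 (1076).

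Of the 11 non-ATPase subunits, 10 were lower in exFoxp3Th17 than in Treg and 10 were lower than in Th17. The exception in both was Psmd4, a ubiquitin receptor of the particle, at 856.4 in Treg, 867.5 in Th0, 1024 in Th17 and 1106 in exFoxp3Th17. Its next brightest probe set also read higher in exFoxp3Th17 (653.2) than in Treg (501.2) but lower than in Th17 (713.5).

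Psmd7, a scaffold subunit of the lid, had signals of 609.8 in Treg, 359.0 in Th0, 498.2 in Th17 and 373.1 in exFoxp3Th17. Its dimmer probe set did not show this pattern, at 39.3, 62.7, 42.2 and 40.2. Psmd3 was lowest in exFoxp3Th17 (215.9, against 345.8 in Treg, 386.5 in Th0 and 297.1 in Th17). Psmd1, a large scaffold of the base, read 801.5, 596.5, 736.5 and 513.9, so that exFoxp3Th17 was 1.56-fold below Treg and 1.43-fold below Th17. Psmd14, the deubiquitinase of the lid, was at 1958, 1760, 1686 and 1399, again with exFoxp3Th17 lowest.

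Psmd5, Psmd9 and Psmd10, chaperones that assemble the base and leave the finished particle, were each lowest in exFoxp3Th17, with log2 ratios from -0.33 to -0.05 against Treg. Psmd10 read 282.9 in Treg, 274.9 in Th0, 334.3 in Th17 and 273.3 in exFoxp3Th17, a range of 1.22-fold. Psmd9 was at 141.1, 154.9, 155.5 and 112.1, but its 2 dimmer probe sets had log2 ratios of 0.45 and 0.88 for exFoxp3Th17 against Treg, opposite to the brightest.

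The activators went separate ways. Psme3, which forms the nuclear PA28 gamma ring, had signals of 207.2 in Treg, 148.8 in Th0, 216.7 in Th17 and 91.5 in exFoxp3Th17. The exFoxp3Th17 value was 2.37-fold below Th17 and 2.26-fold below Treg by this probe set. A dimmer probe set, at 30.5, 22.4, 38.3 and 25.7, gave log2 ratios of only -0.58 and -0.25, so that the 2-fold difference rests on 1 of 2 probe sets above the floor. Psme4, which encodes the large activator PA200, was by contrast highest in exFoxp3Th17, at 667.0, 571.2, 782.6 and 902.4. Its next brightest probe set kept that order (452.0, 342.8, 527.7 and 653.0). A dimmer one did not, at 112.9, 62.3, 128.2 and 104.1, with Th17 highest. Another 2 were highest in Th0, at 41.6 and 29.35. The dimmest was above the floor in exFoxp3Th17 only, at 12.5.

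The 2 genes that are no subunit are given for completeness. Psmc3ip, a cofactor of strand exchange in recombination, was at 185.6 in Treg, 127.6 in Th0, 104.3 in Th17 and 60.8 in exFoxp3Th17. Its 3.05-fold difference between exFoxp3Th17 and Treg was the largest of any member, and its other probe set went the same way (47.9 against 129.5). Psme3ip1 ranged from 291.5 to 377.7. Without these 2 genes, 37 of 40 members were lower in exFoxp3Th17 than in Treg and 34 of 40 lower than in Th17, with median log2 ratios of -0.41 and -0.22.

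A check within the arrays came from the 21 members with 2 probe sets above the floor on every array. The robust SD of the difference between their log2 ratios was 0.26 to 0.28 over the 4 comparisons (0.37 to 0.44 over 4360 genes of the series). This SD is that of a difference between 2 ratios, not of 1 ratio. The members' median for exFoxp3Th17 against Treg (-0.41) was larger than it. The medians for exFoxp3Th17 against Th17 (-0.22), Treg against Th0 (0.18) and Th17 against Th0 (0.04) were smaller. The ratios of Psmb9 and Psmc3ip between exFoxp3Th17 and Treg (-1.32 and -1.61) are larger than this SD. Single genes differed by more, however. In that comparison the 2 probe sets of Psmd9 differed by 1.21, and 17 of 21 members had the same sign by both. In Treg against Th0 those of Psmd7 differed by 1.44. Psmb9, with 1 probe set, is not among the 21. For exFoxp3Th17 against Treg, 19 of 21 brightest and 15 of 21 second probe sets were lower (medians of -0.39 and -0.24). For exFoxp3Th17 against Th17 these were 19 and 18 (-0.31 and -0.21). For Treg against Th0 the second probe sets had a median of 0.25, and for Th17 against Th0 one of 0.05. Probe sets of a gene share the RNA and the array, so this covers neither culture nor sorting.

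Genes that work with the proteasome shared the direction only in part. Of 9 measured assembly factors (which include Psmd5, Psmd9 and Psmd10), 0 passed 2-fold in any comparison. Of all genes, 4.95% to 11.3% did in a given direction. In exFoxp3Th17, 8 assembly factors were lower than in Treg (median log2 ratio -0.19), where 43.8% of all genes were. Against Th17, 8 were lower (-0.27), where 40.6% of all genes were. Pomp, the maturation factor of the core, read 1754 in Treg, 1622 in Th0, 1499 in Th17 and 1191 in exFoxp3Th17, highest in Treg and lowest in exFoxp3Th17 like most subunits. Psmg2, a chaperone of the alpha ring, read 601.1, 513.8, 744.5 and 457.4. Of the assembly factors, Psmg1 alone was higher in exFoxp3Th17 than in Treg (552.2 against 485.9), and Psmg4 alone was higher than in Th17 (138.3 against 127.3).

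Of 11 partners of the finished particle, 0 passed 2-fold in any comparison, where 4.95% to 11.3% of all genes did in a given direction. With equal medians 1 did in exFoxp3Th17 against Th17 and 1 in Treg against Th0. In exFoxp3Th17 8 of 11 were lower than in Th17, where 40.6% of all genes were. Against Treg 6 of 11 were lower, where 43.8% of all genes were (both medians -0.13). Uchl5, a deubiquitinase of the base, was at 1126 in Treg, 811.3 in Th0, 1212 in Th17 and 630.7 in exFoxp3Th17. The other deubiquitinase, Usp14, read 341.3, 345.5, 580.1 and 450.1, so that Th17 and not Treg was highest. Sem1, a small lid subunit outside the name rule, was nearly level (2516, 2613, 2325 and 2222). Among 7 measured genes of ubiquitin activation and the p97 segregase, 0 passed 2-fold either, where the same 4.95% to 11.3% of all genes did. Their medians ran from -0.24 to -0.01.

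Of 8 measured transcription factors and processing enzymes named in proteasome gene control, Nfe2l1, the factor of the proteasome bounce-back response, was highest in exFoxp3Th17 (160.4) and at 109.6, 115.1 and 101.4 in Th0, Th17 and Treg. Nfe2l2 and Ngly1 were lower in Treg than in Th0, at 295.4 against 630.3 and 512.2 against 1119. Both passed 2-fold, where 4.95% of all genes were lower by that much. Stat3 was higher in Th17 (614.5) than in Th0 (263.7), also past 2-fold, where 8.22% of all genes were higher. No other gene of this list passed 2-fold, and with equal medians neither Nfe2l2 nor Ngly1 did, while 1 gene was then higher in Treg than in Th0 and 1 lower in exFoxp3Th17 than in Treg by that much.

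The list of MHC class I loading and peptide supply had the direction of the immunoproteasome genes in the comparisons with Treg. In Treg, all 11 of its genes were higher than in Th0 (median log2 ratio 0.37, 0 past 2-fold, or 1 with equal medians), and in exFoxp3Th17 10 of 11 were lower than in Treg (median -0.52). Tap1 encodes a chain of the peptide transporter and starts beside Psmb9. It had signals of 859.1 in Treg, 588.6 in Th0, 315.6 in Th17 and 404.6 in exFoxp3Th17. At 2.12-fold lower in exFoxp3Th17 than in Treg, it was the only gene of the list past 2-fold. With equal medians 2 genes were lower by 2-fold in that comparison. As deposited, 9.94% of all genes were. Tap2, the other chain, whose gene follows Psmb8, read 552.7, 449.4, 279.2 and 291.1. Psmb8, Psmb9, Tap1 and Tap2, neighbours on chromosome 17, thus shared 1 order: Treg, Th0, then the 2 Th17 populations. The order was not particular to these neighbours, as Psmb10, Psme1, Psmc4, Pomp and Irf1 also had it.

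Of single interferon genes, Irf1, a transcription factor known to drive immunoproteasome genes, was at 655.4 in Treg, 300.3 in Th0, 195.3 in Th17 and 255.1 in exFoxp3Th17. Igtp, an interferon-inducible GTPase, read 3292, 885.5, 1308 and 368.9. Both were highest in Treg, and in Th17 against Th0 they went opposite ways. Ifng itself was above the floor in Treg only, at 25.7, with the other arrays at 0.3 to 1.5. Of 12 type I interferon genes, 9 were at least 2-fold lower in Th17 than in Th0 (median -1.72), where 6.88% of all genes were. In Treg against Th0, 10 were lower (-0.93), 6 of them by 2-fold or more, where 4.95% of all genes were. Under either other scaling, 5 were lower and 1 higher by that much there. For exFoxp3Th17 the median was 0.32 against Th17 and -0.15 against Treg. The part of either interferon in the proteasome values was not tested.

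Of 20 cell cycle genes, all 20 were at least 2-fold lower in exFoxp3Th17 than in Treg, where 9.94% of all genes were. Against Th17, 12 of 20 were (median -1.49), or 15 with equal medians, where 7.27% of all genes were. In Th17 against Th0, where the proteasome genes had no common direction, 17 of 20 were lower (median -0.45). Of these, 3 were lower by 2-fold or more, where 6.88% of all genes were. Mki67, a marker of proliferating cells, was at 2837 in Treg, 3445 in Th0, 1915 in Th17 and 964.3 in exFoxp3Th17. In Treg against Th0, where most proteasome genes were higher, 12 of 20 were higher, 8 lower and 0 past 2-fold (median 0.08). Cytosolic chaperones, another group of protein quality control, had 10 of 14 lower in exFoxp3Th17 than in Treg (median -0.18). Of these, 2 passed 2-fold, where 9.94% of all genes did: Hsp90aa1 (1783 against 3760) and Stip1 (107.2 against 242.1). Against Th17, 8 of 14 were lower, and Stip1 (249.7 in Th17) alone passed 2-fold. In Treg against Th0, 11 of 14 were higher, and Hspa1b (38.9 against 13.0) alone passed 2-fold, or 2 genes under either other scaling.

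**Figure D4:**
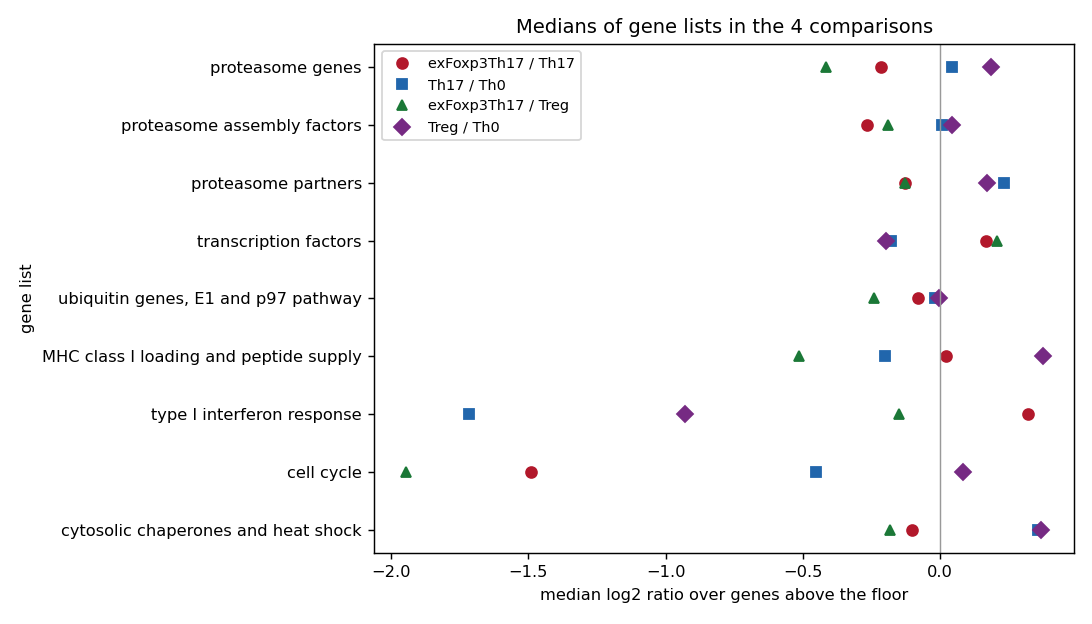
Median log2 ratio (horizontal axis) of the proteasome genes and of 8 related gene lists (vertical axis) over genes above the floor, with 1 symbol for each comparison of single arrays. For exFoxp3Th17 against Treg the medians are -0.41 for the proteasome, -0.52 for MHC class I loading and -1.94 for the cell cycle list.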

How the data were processed

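The authors deposited signal intensities on a linear scale, and the submitters' processing notes name MAS5, without a version or settings. MAS5 gives 1 signal per probe set. The mean signal without the lowest and highest 2% of probe sets came to 100 on all 4 arrays, and this scaling was kept. The table holds 45101 probe sets (64 controls): 34945 have 1 gene symbol, 932 several and 9160 none here. Symbols came from the platform annotation and were updated by gene identifier through a RefSeq table (34741 matched).

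Lower signals were raised to the floor and log2 was taken. A gene counted as higher or lower at 2-fold or more (also read at 1.5-fold) if the higher array lay above the floor. The number of arrays (1 per group) limits the precision, and depth has no counterpart on arrays. Members and gene lists were chosen with earlier results of these data known. The result of 1 gene list is not reported here. Named were the immunoproteasome genes and counterparts, members past 2-fold, those with the largest ratios or extreme ranges, and list genes past 2-fold or the largest; further members and list genes, and the comparison with genes of similar brightness, were picked after values were seen. Alternatives covered the floor, the scaling, the probe set and the member list. The scripts that call differences were tested on simulated data. Python 3.11.15, numpy 2.4.6, pandas 2.3.3 and matplotlib 3.10.9 were used.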

Additional observations from a re-analysis of the deposited data

Results flagged for a closer look

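The probe set annotated to both Psme2 and the related Psme2b lies outside the members, since it has 2 symbols, and was flagged because it held a signal above the floor on every array. The lowest of its 4 signals was 1032, in exFoxp3Th17. It read 1596 in Th0, 1192 in Th17 and 1953 in Treg, which is the same order as Psmb8 and Psme1. Its log2 ratios were -0.92 for exFoxp3Th17 against Treg, -0.21 for exFoxp3Th17 against Th17, -0.42 for Th17 against Th0 and 0.29 for Treg against Th0. Which of the 2 genes gave the signal cannot be told apart.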

How the results depend on the processing

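Of the counts and medians recomputed for the 4 comparisons, 105 values moved by less than 0.1 log2 units or, for counts, by no more than 1.5 times, and 23 moved by more or, in 1 case, by less but with a change of sign. With equal medians of probe sets above the floor, the median log2 ratio of the members became -0.57 for exFoxp3Th17 against Treg, -0.33 for exFoxp3Th17 against Th17, 0.18 for Th17 against Th0 and 0.36 for Treg against Th0, while the median of all genes in the last moved by 0.11. Members past 1.5-fold then numbered 21, 5, 6 and 8 in that order, and those past 2-fold were 0 for Th17 against Th0 and 1 for Treg against Th0. With the second brightest probe set the median was -0.27 for exFoxp3Th17 against Treg. Members past 1.5-fold were 7 for Th17 against Th0 and 7 for Treg against Th0, and past 2-fold they were 0 for exFoxp3Th17 against Th17, 2 for Th17 against Th0 and 1 for Treg against Th0. When the probe sets of a gene were averaged, the median was -0.031 for Th17 against Th0 (the change of sign), 5 members passed 1.5-fold there, and 0 passed 2-fold for exFoxp3Th17 against Th17. The immunoproteasome median minus that of the other members was -0.71 (second probe set) and -0.57 (mean) for exFoxp3Th17 against Treg, and 0.35 and 0.33 for Treg against Th0. The cause was not tested in each case. A floor of 0.5 or 2 times its value, the floor as a pseudocount, quantile normalization and leaving out the 2 genes that are no subunit moved none of these values by that much. Dim second probe sets limit the check of Psme3, Psmd7 and Psmd9. No paired analysis was possible because each population has 1 array.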
